A study of Mus musculus with 28 samples.

Results

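The 10 genes described here encode the signal-transducing chains of the T cell receptor (Cd3e, Cd3d, Cd3g and Cd247), the coreceptor CD4, the first kinases and the scaffold downstream of the receptor (Lck, Zap70 and Lat), and the costimulatory receptors CD28 and ICOS. They were picked by gene symbol, and all 10 were found among the 13103 genes of the deposited expression table. The table comes from a mouse RNA-seq study of regulatory T cells (Tregs), CD4+ T cells that restrain other immune cells and depend on the transcription factor Foxp3. Mice of the strain Foxp3-GFP, whose Tregs carry green fluorescent protein (GFP), bore B16 melanoma in the skin. GFP+ cells of their tumors and spleens were sorted into an OX40plus and an OX40minus gate by surface staining for OX40, the TNF receptor family member that Tnfrsf4 encodes and that costimulates T cells.

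All groups share the strain and the tumor, and differ in tissue and in OX40. Tumor OX40plus and tumor OX40minus Tregs came from 4 mice each, spleen OX40plus and spleen OX40minus Tregs from 3 mice each. There were 28 libraries, 2 for each mouse and gate. The spleens came from tumor-bearing mice, so there is no tumor-free group. The GFP construct is not described, and no label states the age or sex of the mice. Antibodies to CD3 and CD4 were part of the sorting stain, so the proteins of some of the genes described here were also looked at during the sort. Transcript levels of the sorted cells say nothing on surface protein.

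As background, the T cell receptor itself has no signaling tail. CD3 epsilon, delta and gamma and the zeta chain (CD247) carry immunoreceptor tyrosine-based activation motifs (ITAMs), whose tyrosines are phosphorylated by Lck, a kinase that CD4 brings to the receptor. Phosphorylated ITAMs recruit the kinase ZAP-70, which phosphorylates the scaffold LAT, where the signal branches to calcium, Ras and protein kinase C. CD28, which binds CD80 and CD86, and ICOS, which binds ICOS ligand, add a second signal through phosphatidylinositol 3-kinase (PI3K), and Tregs need receptor and CD28 signals to be maintained.

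The coding stretches of these signaling motifs are shown because they separate the members by role: the CD3 genes carry 1 ITAM each, Cd247 carries 3, and Cd28 and Icos carry a motif for PI3K instead. They were read from GENCODE transcripts on mm10, 5′ to 3′ on the strand of the gene, with the motif tyrosine codons in capitals. The genomic interval of each ITAM includes an intron, since all 6 ITAM stretches cross an exon junction.
Cd3e, exons 7 and 8, chr9:44999549-45000440, minus strand: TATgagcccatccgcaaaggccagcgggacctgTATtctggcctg
Cd3d, exons 4 and 5, chr9:44986095-44986311, plus strand: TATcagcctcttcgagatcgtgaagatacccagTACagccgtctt
Cd3g, exons 5 and 6, chr9:44970735-44971268, minus strand: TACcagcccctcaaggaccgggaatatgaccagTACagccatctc
Cd247, exons 3 and 4, chr1:165856451-165857454, plus strand: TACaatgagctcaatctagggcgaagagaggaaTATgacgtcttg
Cd247, exons 5 and 6, chr1:165858473-165859260, plus strand: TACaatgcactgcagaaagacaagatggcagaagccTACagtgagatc
Cd247, exons 7 and 8, chr1:165859819-165861042, plus strand: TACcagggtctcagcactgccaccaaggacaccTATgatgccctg
Cd28, exon 4, chr1:60769693-60769704, plus strand: TACatgaacatg
Icos, exon 4, chr1:60995560-60995571, plus strand: TACatgttcatg
The asparagine codon aac in the Cd28 stretch belongs to the part of the motif that also binds the adapter Grb2, a contact that ICOS lacks.

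On mm10, Cd3g (9:44969572-44980431, minus strand), Cd3d (9:44981786-44987339, plus strand) and Cd3e (9:44998740-45009627, minus strand) lie side by side, with 1354 bases between Cd3g and Cd3d, 11400 between Cd3d and Cd3e and no other coding gene between them. Cd28 (1:60716800-60773359) and Icos (1:60977927-61000320), both on the plus strand, flank Ctla4, the gene of the inhibitory relative CTLA-4, with no other coding gene between them. Cd247 (1:165788681-165877277, plus strand) and Zap70 (1:36761798-36782818, plus strand) are also on chromosome 1. Cd4 is at 6:124864692-124888221, Lck at 4:129548344-129573641 and Lat at 7:126363824-126369570, all on the minus strand. Cd247 overlaps Pou2f1 on the opposite strand, and Cd3e overlaps an antisense gene. Whether the counting used strand is not given, so reads of these overlaps cannot be told apart.

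Values are CPM (counts divided by the scaled total of their library) recovered from the deposited log2 values, and the 2 libraries of a mouse and gate, whose difference was close to that of sampling alone, were counted as 1 sample. The 14 samples held 22.4 to 29.6 M estimated counts (M, mega), so that 3 counts were 0.104 to 0.13 CPM, and all members lay far above that in every sample. Tnfrsf4 followed the gates in both tissues, with 3357 ± 203 (SD, n = 4) and 1950 ± 152 CPM in tumor OX40plus and OX40minus Tregs and 704 ± 111 and 253 ± 40.9 CPM (n = 3 each) in the spleen groups. Foxp3 lay between 23.3 and 62.0 CPM in 13 samples, and at 129.6 CPM in the spleen OX40plus sample of mouse 3. That sample also had the highest CPM of Cd3e, Cd3d, Cd3g, Cd247, Lck, Zap70 and Lat in its group, and the member calls that change without it are named below.

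Markers of other cells were present at levels that differed between groups. The 9 macrophage markers in the table summed to 49.5 to 64.6 CPM in tumor OX40plus and 219 to 337 in tumor OX40minus samples, and to 83.5 to 197 in spleen OX40plus and 779 to 986 in spleen OX40minus samples. Neutrophil markers (5 in the table) summed to 19.9 to 45.8, 190 to 267, 33.1 to 35.5 and 55.8 to 76.2 CPM in the same order. Mmp9 alone made up 185 to 259 CPM of the tumor OX40minus sums. S100a8, S100a9, Csf3r and Cxcr2 each lay at 4.82 CPM or less there. All of these were higher in spleen OX40minus samples, such as Csf3r at 18 to 31.8 and S100a9 at 8.7 to 10.9 CPM. B cell markers (6) reached 429 to 644 CPM in spleen and 2.43 to 6.83 CPM in tumor samples. Of the cells that share receptor components with Tregs, CD8 T cell markers (2) summed to 30.1 to 68.4 CPM over all samples, and natural killer cell markers (7) to 0.544 to 22.1 CPM, with Eomes at 0 in all tumor OX40plus samples. The CD8 marker Cd8a was at 2.28 to 3.47 CPM in tumor OX40plus and 7.04 to 22 CPM in tumor OX40minus samples. Cd8b1, the larger part of that sum, overlapped between these gates (27.4 to 42.9 and 30.5 to 46.4 CPM). The part of these cells in the results was not tested. In such bulk samples, fewer cells of a type and less RNA per cell cannot be told apart.

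The comparisons were made with limma, in a single fit over all 14 samples and 12512 genes. A gene counted as called where its p, adjusted after Benjamini and Hochberg over all genes, was under 0.05. They share samples: each group enters more than 1 comparison. Between OX40plus and OX40minus Tregs of tumors, 1 of 10 members was higher (Zap70) and 2 were lower (Cd4 and Lat), where 18.6% of all tested genes were called higher and 20.0% lower. In spleens, 2 members were higher (Icos and Zap70) and none lower, against 4.39% and 3.60% of all genes. Between tumor and spleen, 5 members were higher and 3 lower in OX40plus Tregs (30.3% and 34.2% of all genes), and 6 were higher and 2 lower in OX40minus Tregs (29.7% and 29.3%). The OX40 difference itself was more negative in tumors than in spleens for 3 members, Cd3e, Cd4 and Icos, and more positive for none, against 6.38% and 4.53% of all genes.

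**Figure D1:**
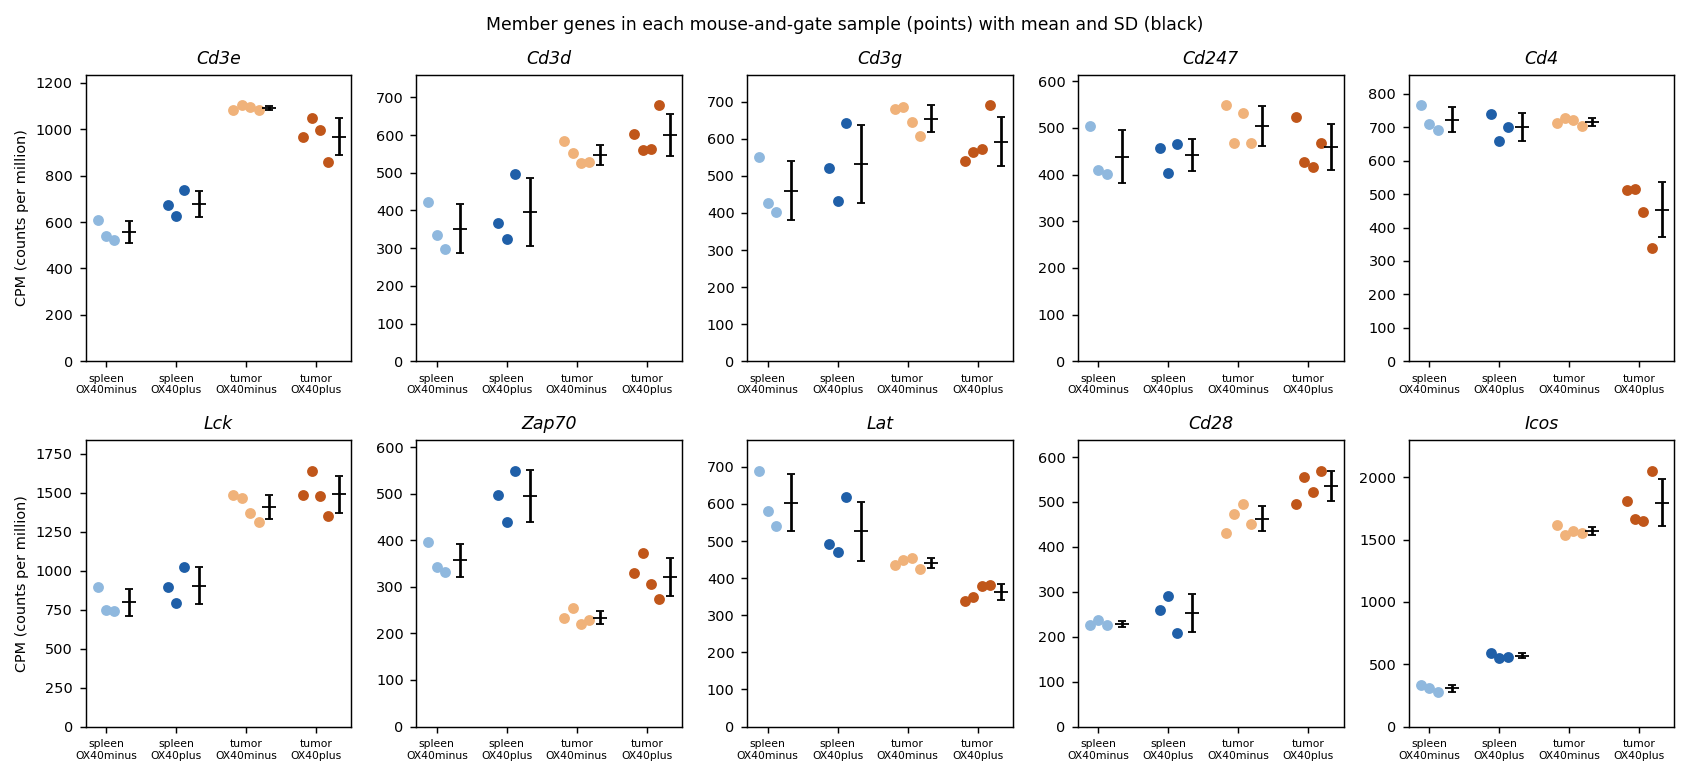
Each panel gives the CPM of a member in the 14 samples (points, 1 per mouse and gate) with the group mean and SD in black; the vertical axes start at 0. Icos was lowest in the 3 spleen OX40minus samples and highest in the 4 tumor OX40plus samples, and Cd4 was lowest in the 4 tumor OX40plus samples.

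Cd3e and Cd3d were higher in tumor than in spleen Tregs of both gates and Cd3g in OX40minus Tregs, while the zeta chain gene Cd247 was not called in any comparison. Cd3e encodes CD3 epsilon, which pairs with both CD3 delta and CD3 gamma. Its levels were 610.1, 539 and 521 CPM in spleen OX40minus mice 1, 2 and 3 and 673, 626 and 739 CPM in spleen OX40plus. In tumors it was at 1085, 1103, 1095 and 1084.5 CPM in OX40minus mice 1 to 4, and at 966, 1050.2, 998 and 859.6 CPM in OX40plus. No 2 groups overlapped, and the order ran from spleen OX40minus through spleen OX40plus and tumor OX40plus to tumor OX40minus. The log2 fold change between tissues was 0.98 ± 0.09 (SE, adjusted p = 1.22e-07) in OX40minus and 0.51 ± 0.09 (adjusted p = 9.93e-05) in OX40plus Tregs.

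Between the gates, Cd3e went opposite ways in the tissues. It was lower in the OX40plus cells of 4 of 4 tumor mice and higher in those of 3 of 3 spleen mice. Neither difference passed on its own (tumor -0.18 ± 0.08, adjusted p = 0.103; spleen 0.29 ± 0.10, adjusted p = 0.0836), but the difference between them did (-0.46 ± 0.13, adjusted p = 0.0266). With the mouse as a block, the adjusted p of that last value was 0.0728. It was also above the threshold without spleen OX40minus replicate 2 (0.0781), OX40minus replicate 3 (0.0621), OX40plus replicate 1 (0.0643) or OX40plus replicate 3 (0.0525). The spleen difference passed when spleen OX40minus replicate 1 (0.0451) or tumor OX40plus replicate 4 (0.0355) was left out. With the total count as the only scaling, both gate differences passed (tumor 0.034, spleen 0.021).

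Cd3d and Cd3g encode the chains that each form a dimer with CD3 epsilon. Cd3d was at 423, 334 and 297 CPM in spleen OX40minus and at 367, 325 and 497 CPM in spleen OX40plus mice 1 to 3. In tumors it reached 584, 553, 526 and 528 CPM in OX40minus and 602, 559.8, 563 and 679 CPM in OX40plus mice 1 to 4. All 8 tumor samples lay above all 6 spleen samples, and the gates overlapped within each tissue. The tissue differences were 0.66 ± 0.14 (adjusted p = 0.000636) in OX40minus and 0.62 ± 0.14 (adjusted p = 0.000856) in OX40plus Tregs. The gate differences were 0.13 ± 0.13 in tumors (adjusted p = 0.449, 95% interval -0.14 to 0.40) and 0.17 ± 0.15 in spleens (adjusted p = 0.725, -0.14 to 0.48). In spleens the difference rested on mouse 3, at 0.75, with -0.21 and -0.04 in mice 1 and 2, and it was -0.01 without spleen OX40plus replicate 3.

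Cd3g overlapped more between tissues. It was at 550.0, 428 and 402 CPM in spleen OX40minus and at 523, 433 and 643 CPM in spleen OX40plus samples. Tumor OX40minus samples had 682, 686, 645 and 607 CPM, and tumor OX40plus samples 541, 565, 573 and 691 CPM. The tissue difference passed in OX40minus Tregs (0.52 ± 0.13, adjusted p = 0.00307) and did not in OX40plus Tregs (0.17 ± 0.13, adjusted p = 0.29). The difference between these 2 values, -0.36 ± 0.19, did not pass either (adjusted p = 0.252). The gates did not differ beyond the spread in tumors (-0.15 ± 0.12, adjusted p = 0.368) or spleens (0.21 ± 0.14, adjusted p = 0.568). In spleens the value rested on mouse 3, at 0.68, with -0.07 and 0.02 in mice 1 and 2. Without spleen OX40plus replicate 3 it was 0.06, and the tissue difference in OX40plus Tregs was 0.31 (adjusted p = 0.0514).

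Cd247, which encodes the zeta chain with its 3 ITAMs, had ranges that overlapped between groups, with a single exception. Spleen OX40plus samples (at most 465.2 CPM) lay just below tumor OX40minus samples (at least 467.7 CPM). It was at 504, 409 and 401 CPM in spleen OX40minus, 457, 404 and 465 in spleen OX40plus, 549, 468, 533 and 468 in tumor OX40minus and 524, 428, 417 and 467 CPM in tumor OX40plus samples. Its tissue differences were 0.21 ± 0.11 (adjusted p = 0.106) in OX40minus and 0.05 ± 0.11 (adjusted p = 0.687) in OX40plus Tregs. The first passed without spleen OX40minus replicate 1 (0.31, adjusted p = 0.0235). Its gate differences were -0.14 ± 0.10 in tumors (adjusted p = 0.295) and 0.02 ± 0.11 in spleens (adjusted p = 0.989), the latter -0.02 without spleen OX40plus replicate 3.

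Within a sample, Cd247 can be set against the mean log2 CPM of the 3 CD3 genes, a difference that the scaling between libraries leaves unchanged. This was -0.03 (range -0.06 to 0.02) in spleen OX40minus, -0.23 (-0.41 to -0.14) in spleen OX40plus, -0.54 (-0.68 to -0.43) in tumor OX40minus and -0.61 (-0.72 to -0.37) in tumor OX40plus samples. All spleen OX40minus samples lay above all samples of the other groups. The ranges of the tumor gates overlapped, and that of spleen OX40plus reached into that of tumor OX40plus. The ratio was built after the results were known and no test was run on it.

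Cd4 was the member with the largest difference between the gates of tumors, where it was lower in OX40plus Tregs. Its product, the coreceptor that binds MHC class II and carries Lck, was part of the sorting stain. Cd4 was at 766, 710.3 and 693 CPM in spleen OX40minus, 741, 658 and 701 in spleen OX40plus and 712, 728, 722 and 703 CPM in tumor OX40minus samples. Tumor OX40plus samples had 511, 515, 448 and 340.1 CPM. Those 4 samples lay below the other 10, which overlapped with each other. The tumor gate difference was -0.68 ± 0.11 (adjusted p = 0.000141), with -0.48, -0.50, -0.69 and -1.05 in mice 1 to 4. Between tissues it was -0.64 ± 0.12 (adjusted p = 0.000149) in OX40plus Tregs and -0.01 ± 0.12 (adjusted p = 0.934, 95% interval -0.26 to 0.24) in OX40minus Tregs.

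In spleens the gate difference of Cd4 was -0.05 ± 0.12 (adjusted p = 0.962, 95% interval -0.31 to 0.22). The tumor difference minus the spleen difference was -0.63 ± 0.17 (adjusted p = 0.0228). This last call was lost without spleen OX40minus replicate 2 (adjusted p = 0.0598), OX40minus replicate 3 (0.0501) or OX40plus replicate 1 (0.0702). The tumor call held under all 22 alternatives, with adjusted p between 4.03e-05 and 0.00122.

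The kinases divided by tissue: Lck was higher and Zap70 lower in tumor Tregs of both gates, and Zap70 was higher in OX40plus Tregs of both tissues. Lck, which phosphorylates the ITAMs, was at 895, 751 and 745 CPM in spleen OX40minus and at 893, 791 and 1027 CPM in spleen OX40plus samples. In tumors it was at 1485, 1464, 1372 and 1316 CPM in OX40minus and at 1486, 1643, 1478 and 1352 CPM in OX40plus samples. All tumor samples lay above all spleen samples, and the gates overlapped in each tissue. The tissue differences were 0.83 ± 0.10 (adjusted p = 4.93e-06) in OX40minus and 0.73 ± 0.10 (adjusted p = 1.48e-05) in OX40plus Tregs. The gate differences were 0.08 ± 0.10 in tumors (adjusted p = 0.561, 95% interval -0.13 to 0.28) and 0.18 ± 0.11 in spleens (adjusted p = 0.509, -0.06 to 0.42). The spleen value was 0.08 without spleen OX40plus replicate 3.

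Zap70, the kinase that docks on phosphorylated ITAMs, was at 396, 343 and 331 CPM in spleen OX40minus and at 497, 439 and 549.7 CPM in spleen OX40plus samples. In tumors it was at 232, 254, 221 and 228 CPM in OX40minus and at 331, 373, 306 and 274 CPM in OX40plus samples. The gates did not overlap in either tissue, and tumor OX40plus overlapped with spleen OX40minus only. OX40plus cells were higher in 4 of 4 tumor mice (0.45 ± 0.10, adjusted p = 0.0022) and in 3 of 3 spleen mice (0.47 ± 0.12, adjusted p = 0.0171). The 2 differences differed by -0.02 ± 0.15 (adjusted p = 0.95, 95% interval -0.35 to 0.30). Between tissues Zap70 fell by 0.61 ± 0.11 in OX40minus (adjusted p = 0.000157) and by 0.63 ± 0.11 in OX40plus Tregs (adjusted p = 8.91e-05).

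The spleen call of Zap70 was lost without spleen OX40minus replicate 2 (adjusted p = 0.0791), OX40minus replicate 3 (0.0841), OX40plus replicate 1 (0.0626) or OX40plus replicate 3 (0.0782), with differences of 0.39 to 0.47. Set against Lck in the same sample, Zap70 was at -1.16 (range -1.17 to -1.13) in spleen OX40minus, -0.86 (-0.90 to -0.85) in spleen OX40plus, -2.59 (-2.68 to -2.53) in tumor OX40minus and -2.22 (-2.30 to -2.14) in tumor OX40plus samples, as log2 differences of CPM. The 4 ranges did not overlap and were each narrower than the gap to the next. As with the other ratios, no test was run on it.

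**Figure D2:**
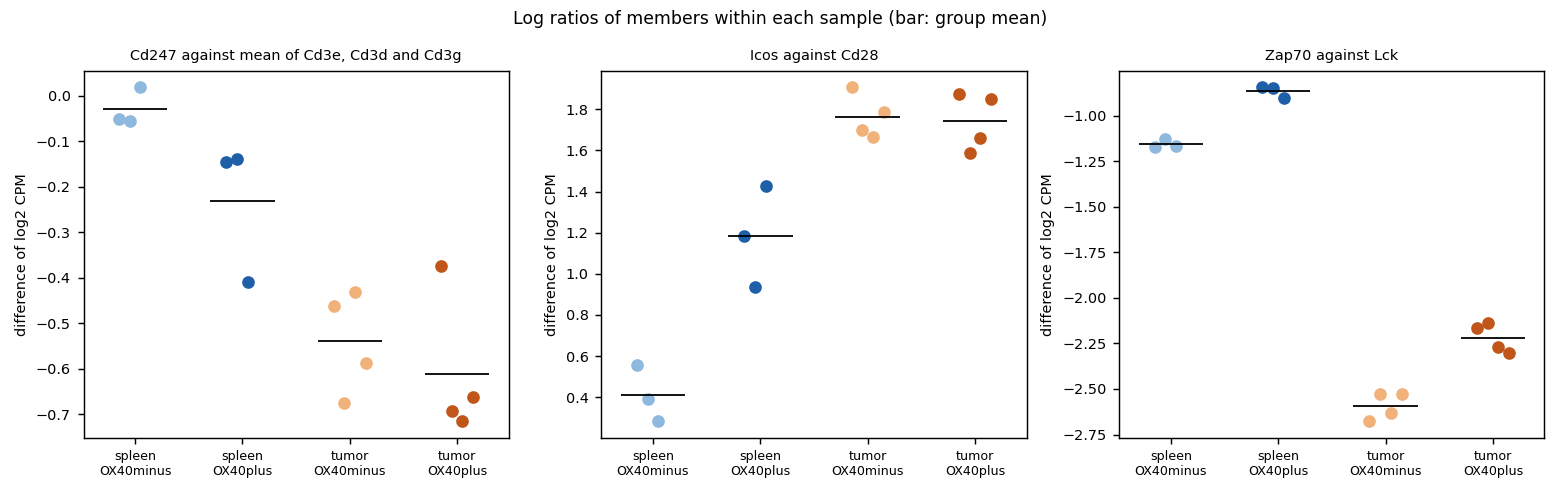
Points are log2 differences of CPM between members in the same sample, 1 per mouse and gate, and bars are group means. Zap70 against Lck formed 4 separate bands, from -2.59 in tumor OX40minus to -0.86 in spleen OX40plus samples, and Icos against Cd28 went from a mean of 0.41 in spleen OX40minus to above 1.7 in both tumor groups.

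Lat encodes the membrane scaffold that ZAP-70 phosphorylates, and it was lower in tumor than in spleen Tregs. Its levels were 689.9, 580.5 and 540.0 CPM in spleen OX40minus, 491, 470.1 and 617 in spleen OX40plus, 435, 448, 455 and 425 in tumor OX40minus and 339, 349, 379 and 382 CPM in tumor OX40plus samples. Tumor OX40plus samples lay below all others, tumor OX40minus samples came next, and the spleen gates overlapped. The tissue differences were -0.45 ± 0.10 (adjusted p = 0.00143) in OX40minus and -0.53 ± 0.10 (adjusted p = 0.000272) in OX40plus Tregs. The tumor gate difference was -0.28 ± 0.10 (adjusted p = 0.0263), lower in OX40plus cells of 4 of 4 mice, and the spleen difference was -0.20 ± 0.11 (adjusted p = 0.406; -0.32 without spleen OX40plus replicate 3). With the mouse as a block, the tumor call was lost (adjusted p = 0.0638). It was also lost without tumor OX40minus replicate 2 (0.0566), OX40minus replicate 3 (0.0647), OX40plus replicate 1 (0.0676) or OX40plus replicate 2 (0.06).

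**Figure D3:**
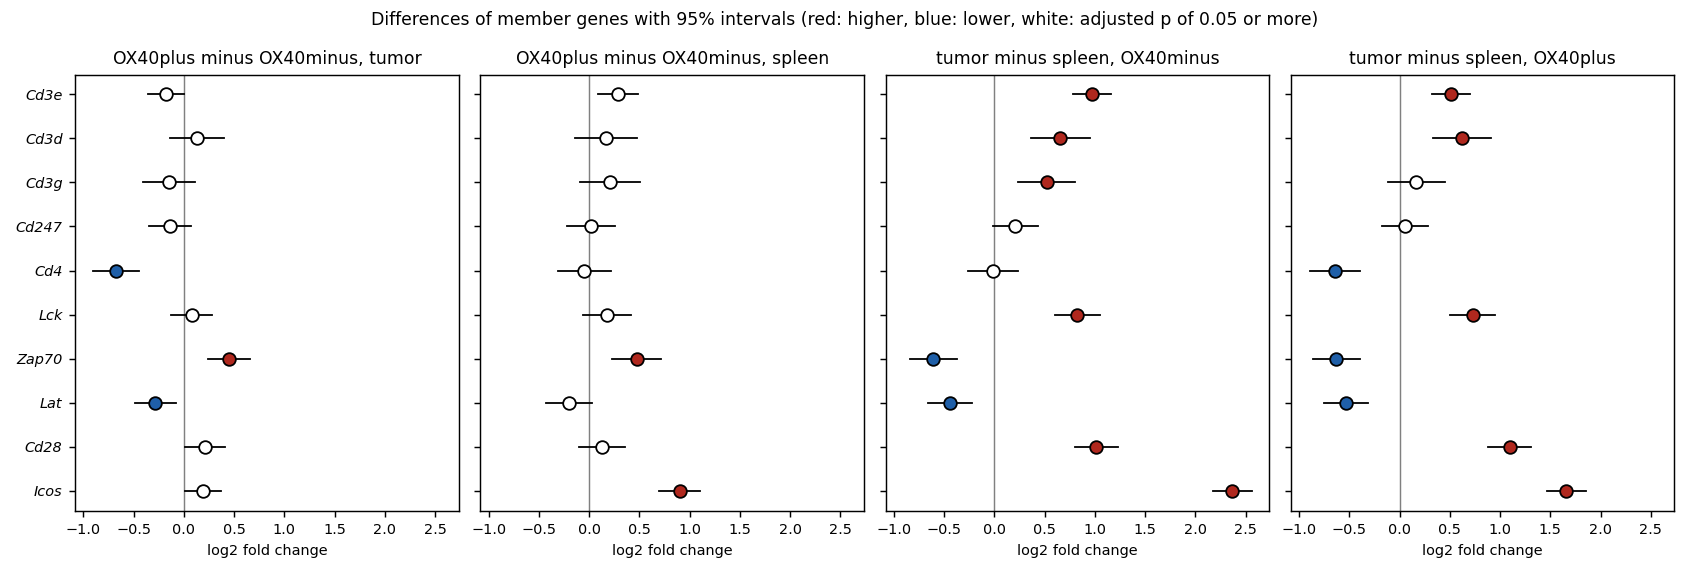
Log2 fold changes of the members (circles) with 95% intervals, from left to right for the gates in tumors, the gates in spleens, the tissues in OX40minus and the tissues in OX40plus Tregs; red is called higher, blue called lower and white not called. Tissue differences were called for 8 of 10 members in each gate, gate differences for 3 in tumors and 2 in spleens. Among all genes, 30.3% were higher and 34.2% lower between tissues in OX40plus Tregs, 29.7% and 29.3% in OX40minus Tregs, 18.6% and 20.0% between the tumor gates and 4.39% and 3.60% between the spleen gates.

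The costimulatory receptor genes were the members that stood highest in tumor over spleen Tregs. Icos is the inducible receptor, raised on activated T cells and abundant on effector Tregs. It was at 331, 310.2 and 274 CPM in spleen OX40minus and 591, 554 and 559 CPM in spleen OX40plus samples. Tumor OX40minus samples had 1615, 1539.5, 1569 and 1556 CPM, and tumor OX40plus samples 1812, 1669, 1646.5 and 2054 CPM. The 4 groups did not overlap. Icos was higher in tumor Tregs by 2.37 ± 0.09 (adjusted p = 6.06e-12) in OX40minus and by 1.66 ± 0.09 (adjusted p = 2.52e-10) in OX40plus cells.

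Between the gates, Icos rose in spleens by 0.90 ± 0.10 (adjusted p = 2.7e-05), with 0.83, 0.84 and 1.03 in mice 1 to 3. In tumors the difference was 0.19 ± 0.08 (adjusted p = 0.0914), with 0.17, 0.12, 0.07 and 0.40 in mice 1 to 4. It was thus higher in OX40plus cells of 7 of 7 mouse pairs, and the difference between tissues, -0.71 ± 0.13, passed (adjusted p = 0.00251). That call and the spleen call held in all alternatives run, 21 and 22 of them, with adjusted p of at most 0.0136 and 0.000979. The size of the absolute difference of Icos in spleens stood at the 88.9th percentile of all tested genes, the highest of the 10 members in that comparison. Tnfrsf4 itself had a smaller gate difference in tumors than in spleens (tumor minus spleen -0.69, adjusted p = 0.0167), and its part in the values of Icos was not tested.

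Cd28 encodes the constitutive receptor for CD80 and CD86. It was at 225, 236 and 225 CPM in spleen OX40minus, 260.4, 290.0 and 208 in spleen OX40plus, 431, 474, 495 and 451 in tumor OX40minus and 495, 556, 522 and 569.9 CPM in tumor OX40plus samples. Every tumor sample was above every spleen sample, and the gates overlapped in both tissues. The tissue differences were 1.01 ± 0.10 (adjusted p = 3.22e-07) in OX40minus and 1.10 ± 0.10 (adjusted p = 9.14e-08) in OX40plus Tregs, with a difference between them of 0.08 ± 0.14 (adjusted p = 0.775). The gate difference in tumors was 0.21 ± 0.09 (adjusted p = 0.086), higher in 4 of 4 mice. It passed when only the tumor groups were fitted (adjusted p = 0.0449) and without spleen OX40plus replicate 3 (0.0283). In spleens it was 0.13 ± 0.11 (adjusted p = 0.686), with 0.21, 0.30 and -0.12 in mice 1 to 3. Without spleen OX40plus replicate 2 it was 0.02, and without replicate 3 it was 0.26.

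The log2 difference between Icos and Cd28 in the same sample was 0.41 (range 0.28 to 0.56) in spleen OX40minus, 1.18 (0.93 to 1.43) in spleen OX40plus, 1.76 (1.66 to 1.91) in tumor OX40minus and 1.74 (1.59 to 1.87) in tumor OX40plus samples. Per length of the annotated transcript, Icos stood at 94.2 CPM per kilobase (kb) and Cd28 at 52.7 in spleen OX40minus Tregs. In tumor OX40plus Tregs the same quantity was 554 for Icos and 123 for Cd28. Icos has a second, shorter coding transcript, with which its values would be higher still. On this scale Cd3e was at 381 CPM per kb in spleen OX40minus and 662 in tumor OX40plus Tregs, and Cd4 at 233 and 146, so that Cd3e stood above Cd4 in both. Each of Cd3e, Cd4 and Cd28 has 1 annotated coding transcript.

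**Figure D4:**
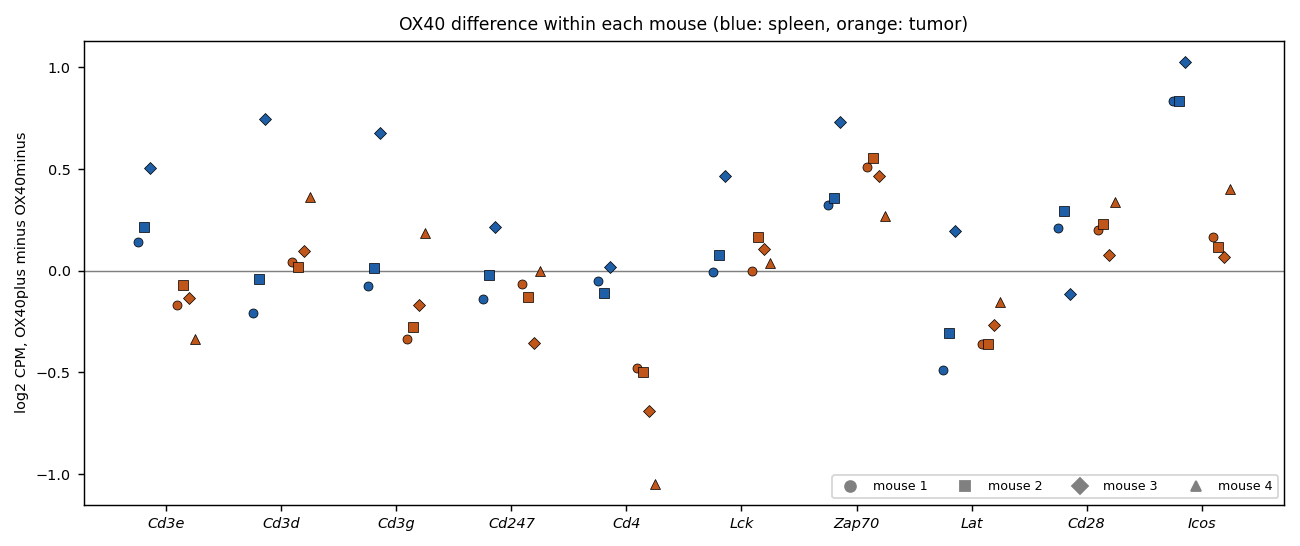
Points are log2 CPM of the OX40plus minus the OX40minus sample of the same mouse, blue for spleens (3 mice) and orange for tumors (4 mice), with the mouse given by the shape. Zap70 and Icos were above 0 in all 7 pairs, Cd4 lay between -0.48 and -1.05 in tumors and near 0 in spleens, and mouse 3 gave the highest spleen value for 9 of the 10 members.

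Genes around the receptor were taken from lists of signaling partners. Of 20 tested proximal signaling genes, 11 were lower and none higher in tumor OX40plus than OX40minus Tregs (median -0.43, all tested genes -0.07), beside 20.0% of all genes called lower. They were led by Prkcq, which encodes protein kinase C theta (92.6 ± 6.5 against 212 ± 14.4 CPM, -1.20, adjusted p = 1.51e-08). Next came Grap2, the adapter that joins LAT to SLP-76 (46.7 ± 2.7 against 80.6 ± 3.3 CPM, -0.79, adjusted p = 2.89e-06). In spleens 4 were lower, beside 3.60% of all genes (median -0.14, all genes 0.01): Grap2 (-0.88), Txk, a Tec kinase gene (-0.94), Prkcq (-0.64) and Themis (-0.66, called in 15 of 22 alternatives).

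Between tissues, 9 genes of the same list were higher and 8 lower in OX40plus Tregs, beside 30.3% and 34.2% of all genes, and 11 were higher and 5 lower in OX40minus Tregs, beside 29.7% and 29.3% (medians 0.13 and 0.30, all genes -0.13 and -0.03). Tumor Tregs were lower in Grap2 (-2.23 in OX40plus and -2.32 in OX40minus cells), in Was, an actin regulator (-1.69 and -1.40), and in Prkcq (-1.32 and -0.76). Of 19 inhibitors of receptor signaling, 2 were higher and 5 lower between the tumor gates (median -0.06) and 2 higher and 2 lower between the spleen gates (0.03). Of all tested genes, 18.6% and 20.0% were called higher and lower between the tumor gates and 4.39% and 3.60% between the spleen gates (medians -0.07 and 0.01). Dgka, which encodes a kinase that removes diacylglycerol, was lower in OX40plus cells of tumors (-1.28, adjusted p = 1.64e-08) and spleens (-0.50, adjusted p = 0.00203). The adapter gene Lax1 was lower in OX40plus cells of tumors (-1.28, adjusted p = 8.59e-07) and higher in those of spleens (0.53, adjusted p = 0.0212, called in 18 of 22 alternatives), and these differed (-1.81, adjusted p = 1.89e-05). Csk, which encodes the kinase that holds Lck inactive, was lower in tumors in both gates (-1.66 in OX40plus and -1.72 in OX40minus).

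Of the 6 other genes of the CD28 family and its ligands, 3 were higher and 3 lower in tumor than in spleen OX40plus Tregs. In OX40minus Tregs 3 were higher and 2 lower. Among all genes, 30.3% were higher and 34.2% lower in OX40plus and 29.7% and 29.3% in OX40minus Tregs. The higher genes of both gates included Ctla4 and Pdcd1, which thus went the way of Icos and Cd28. Ctla4, the neighbour of both, was at 4180 ± 214 CPM in tumor OX40plus, 3745 ± 306 in tumor OX40minus, 841 ± 33.7 in spleen OX40plus and 472 ± 29.5 in spleen OX40minus Tregs. Its gate difference passed in spleens (0.83, adjusted p = 5.07e-05) and differed between tissues (tumor minus spleen -0.67, adjusted p = 0.00346). Pdcd1, the gene of PD-1, rose in OX40plus cells of spleens by 1.87 and of tumors by 0.65 (adjusted p = 1.83e-06 and 0.000909). Btla, an inhibitory receptor gene, was lower in tumor Tregs (-2.52 in OX40plus and -1.93 in OX40minus cells). The ligand genes Cd86 and Icosl were lower in tumor OX40plus than OX40minus Tregs (-1.70, adjusted p = 1.07e-05, and -1.41, adjusted p = 1.62e-05). Dendritic cell marker sums (6 genes) were 37.9 to 67.3 and 134 to 193 CPM in those groups. Cd209a alone made up 24.9 to 43.1 and 75.6 to 126 CPM of them. Macrophage marker sums (9 genes) were 49.5 to 64.6 and 219 to 337 CPM there. The part of either cell type in the ligand values was not tested.

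The PI3K arm, onto which CD28 and ICOS feed, had 1 higher and 3 lower genes of 9 between the tumor gates (median -0.20) and none called between the spleen gates (-0.12), where 18.6% and 20.0% of all genes were called higher and lower in tumors and 4.39% and 3.60% in spleens. Pik3r1 and Pik3cd, which encode the regulatory subunit p85 alpha and the catalytic subunit p110 delta, were lower in tumor OX40plus than OX40minus cells (-0.77, adjusted p = 6.59e-06, and -0.88, adjusted p = 0.000393). Between tissues 6 of 9 were lower and 1 was higher in each gate, beside 34.2% lower and 30.3% higher among all genes in OX40plus and 29.3% and 29.7% in OX40minus Tregs. Carmil2, which takes part in CD28 signaling, was lower in tumors (-1.96 and -1.45). Of 13 genes of the calcium and NFAT arm, 8 were lower and none higher in tumor OX40plus Tregs (median -0.43, all genes -0.07), beside 20.0% lower and 18.6% higher among all genes. They were led by the calcium channel gene Orai2 (-1.22, adjusted p = 3.84e-06) and the calcium sensor genes Stim1 (-0.68, adjusted p = 8.57e-05) and Stim2 (-0.64, adjusted p = 0.000103). In spleens 1 was called, Nfatc1, which was higher (0.67, adjusted p = 0.00784).

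Genes of RNA-binding proteins of the family that represses Icos transcripts, namely the Roquin genes Rc3h1 and Rc3h2 and the Regnase genes Zc3h12a and Zc3h12d, were examined beside Icos. Between tissues, Rc3h1 was lower in tumor Tregs of both gates (-1.17, adjusted p = 6.8e-05, and -1.12, adjusted p = 0.000133), as was Rc3h2 (-0.84 and -0.45, adjusted p = 0.00083 and 0.0458). The second Rc3h2 call held in 14 of 22 alternatives. Zc3h12a was lower in tumors in OX40plus cells (28.7 ± 6.2 against 85.7 ± 9.5 CPM, -1.60, adjusted p = 1.02e-07). It was not called in OX40minus cells (56.7 ± 4.9 against 71.75 ± 2.0 CPM), the gate with the larger tissue difference of Icos. Of these 4 genes, 3 were thus lower in OX40plus and 2 in OX40minus Tregs of tumors, beside 34.2% and 29.3% of all genes. Between the tumor gates Zc3h12a was lower (-1.0, adjusted p = 3.51e-05) and Zc3h12d higher (0.52, adjusted p = 0.00154) in OX40plus cells. In spleens Zc3h12d was higher (0.45, adjusted p = 0.0419, called in 10 of 22 alternatives). The part of these genes in the values of Icos was not tested.

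Among 8 other costimulatory and adhesion receptors, 1 was higher and 4 lower between the tumor gates and 1 was lower between the spleen gates (medians -0.22 and 0.21). Among all genes, 18.6% were higher and 20.0% lower between the tumor gates and 3.60% lower between the spleen gates. Slamf1 was lower in tumor OX40plus than OX40minus cells (-1.07, adjusted p = 1.54e-07), and this difference minus that in spleens was -1.34 (adjusted p = 1.26e-05). Thy1, the gene of the T cell surface protein CD90, was at 56.6 ± 9.8 and 57.7 ± 3.4 CPM in tumor OX40plus and OX40minus against 320 ± 29.2 and 510.0 ± 70.1 CPM in the spleen groups (-2.51, adjusted p = 1.01e-10, and -3.14, adjusted p = 1.05e-11). Cd2, an adhesion receptor gene, was higher in tumor Tregs of both gates (0.65 and 1.06).

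**Figure D5:**
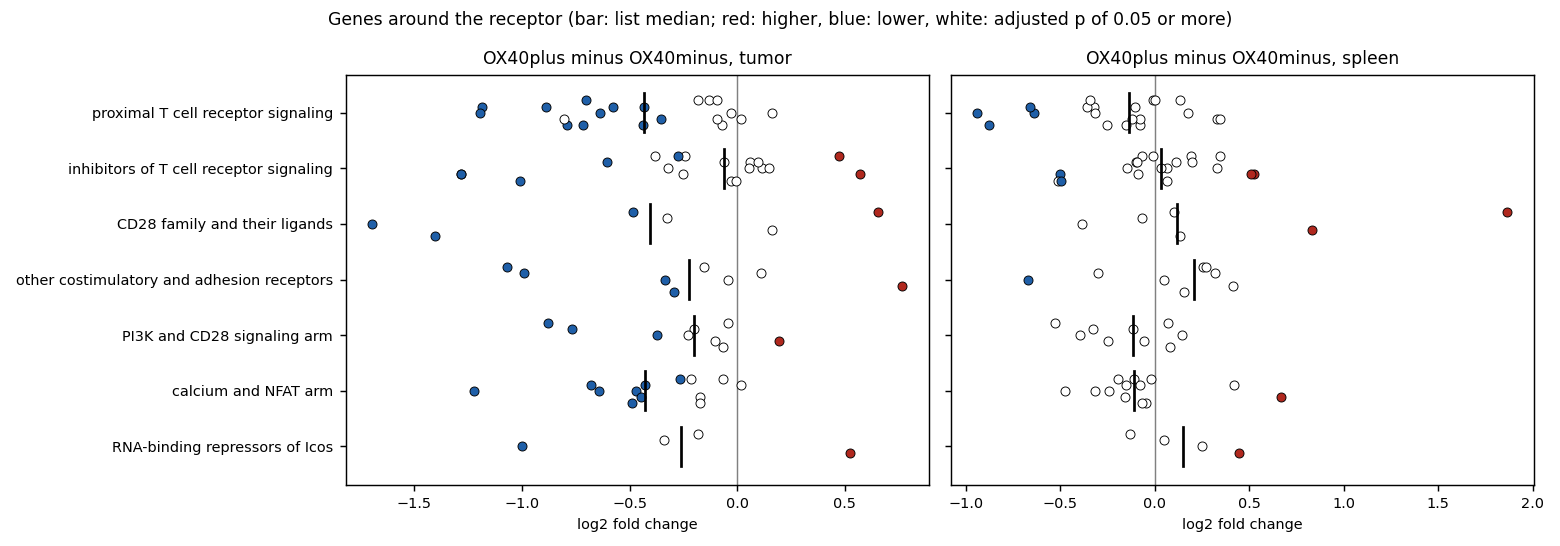
Log2 fold changes between OX40plus and OX40minus Tregs of genes in 7 lists around the receptor, in tumors (left) and spleens (right); each point is a gene, red called higher, blue called lower and white not called, and bars are list medians. Between the tumor gates, 11 of 20 proximal signaling genes and 8 of 13 genes of the calcium and NFAT arm were called lower and none higher, beside 20.0% lower and 18.6% higher among all genes.

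Receptor parts and kinases that B cells, macrophages and other cells use in place of the T cell set were also read. Of 7 tested, 6 were lower in tumor OX40plus than OX40minus samples and 3 were lower in spleen OX40plus than OX40minus samples (medians -1.58 and -0.51), beside 20.0% and 3.60% of all genes (medians -0.07 and 0.01). Fcer1g, the Fc receptor gamma chain that can stand in for the zeta chain, was at 17.7 ± 4.1 against 50.05 ± 10.8 CPM between the tumor gates and 10.5 ± 4.4 against 61.0 ± 12.6 CPM between the spleen gates (-1.50 and -2.60, adjusted p = 0.000103 and 1.98e-05). Syk, the relative of Zap70, was at 3.7 ± 1.6 and 14.2 ± 3.4 CPM in tumor OX40plus and OX40minus and at 85.7 ± 13.5 and 122 ± 18.1 CPM in spleen OX40plus and OX40minus samples (tumor gates -2.05, adjusted p = 4.65e-05). Macrophage marker sums were lower in OX40plus samples of both tissues, as Fcer1g was, and B cell marker sums were higher in spleens as Syk was. Lat2, also of this list, was instead higher in tumors in OX40plus (1.37, adjusted p = 9.8e-06) and OX40minus samples (1.30, adjusted p = 2.19e-05). Between tissues, 2 of the 7 were higher and 4 lower in OX40plus samples, beside 30.3% and 34.2% of all genes. In OX40minus samples 1 was higher and 4 were lower, beside 29.7% and 29.3%. The part of such cells in these values was not tested.

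Among themselves, the members did not follow a single pattern across the 14 samples. After subtraction of the group means, Pearson's r of log2 CPM was highest between Cd3d and Cd3g (0.943), Lck and Zap70 (0.907) and Cd3e and Lck (0.904). These values come from samples in which the members share library and scaling. Cd28 was negative with every other member but Icos (0.102), down to -0.617 with Lck. Without the subtraction, Lck and Zap70 were at -0.557. The tested genes most like each member over the 14 samples, by Pearson's r, were Samsn1 (0.998) and Tnfrsf9 (0.995) for Icos, and Far1, Sypl and Rab8b (0.984 to 0.985) for Cd28. They were Dusp5 (0.984), Dusp1 (0.984) and Slc2a8 (0.983) for Cd3e, Fis1, Arf5 and Pigyl (0.981 to 0.988) for Cd3d, and Bloc1s1, 1810058I24Rik and Commd4 (0.922 to 0.946) for Cd3g. Cd247 had no gene above 0.880, that of Gsdmd. Stim1 (0.966), Ube2h and Frmd8 were nearest to Cd4, Lag3 (0.972), Gnl1 and Anxa11 to Zap70, Edem2 (0.988), Puf60 and Capg to Lck, and Pdcd2 (0.975), Tle5 and Dnajc7 to Lat. Groups that differ by tissue make such values high for any genes with a tissue difference, and no test was run on them.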

How the data were processed

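RNA-seq was done on 28 libraries of sorted mouse Tregs made with a TruSeq RNA kit, per the labels' protocols. The submitters' processing notes name bcl2fastq 2.19, kallisto, limma and the build mm10. They give neither the way transcripts were summed to genes nor the scaling factor, and strandedness is not given. The deposited values are log2 CPM: 451 to 1322 genes in each library share its lowest value, as log2 of 0.5 count over the effective library size gives. Inverting that formula gave estimated counts, 46.6% to 51.2% of them whole within 0.01. kallisto splits ambiguous reads, so genes with near-identical copies are uncertain.

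Libraries of the same mouse and gate had a median chi-square per gene of 0.496 to 0.572 (14 pairs, where sampling alone gives 0.455), against 1.38 to 13 between mice (72 pairs), and were averaged on the log2 scale and counted as 1 sample. The labels name mice, so p-values measure the spread between animals. One limma fit (limma 3.58.1, R 4.3.3; empirical Bayes with a mean-variance trend) held 1 term per group. The 12512 genes that reached 0.382 CPM in 3 or more samples and 15 counts in total were tested. Log2 fold changes understate changes of genes near 0. The limma steps were tested on simulated data.

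Mouse numbers in the titles pair the gates of a tissue. Deviations from the group means correlated at -0.162 to 0.112 between the gates of a mouse (7 pairs). The labels do not say whether tumor and spleen mice of 1 number are the same animal (correlations -0.034 to 0.043).

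The members, 9 pathway lists and 9 marker lists (161 genes, 142 of them tested) were chosen with earlier results of these data known. Named were all members, up to 4 called genes of each pathway list and comparison with the smallest adjusted p, and the 3 tested genes most like each member; other genes of the lists are given by their counts, and some genes that this rule selects are not reported here. The list of T cell receptor constant genes had no gene in the table and was not analysed here. The alternatives were also applied to the lists, which was added after seeing the data. Coding stretches and positions come from GENCODE M21 on mm10.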

Additional observations from a re-analysis of the deposited data

Results flagged for a closer look

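For 3 members the OX40 difference in tumors differed from that in spleens by limma's test of the interaction. Icos differed by -0.71 (adjusted p = 0.00251), being higher in OX40plus cells by 0.90 in spleens and 0.19 in tumors. For Cd4 the value was -0.63 (adjusted p = 0.0228), with -0.68 in tumors and -0.05 in spleens. For Cd3e it was -0.46 (adjusted p = 0.0266), with all 4 tumor mice below 0 and all 3 spleen mice above 0. The Cd3e call was lost once mice entered as blocks (adjusted p = 0.0728) and in 4 of the 14 fits that each left out 1 sample, and the Cd4 call in 3 of them. No member had a sample that stood apart by Dixon's criterion in the tumor groups of 4; groups of 3 were not examined.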

How the results depend on the processing

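Over 22 alternatives (21 for the interaction), 1045 of 1090 recomputed member values kept their direction and side of the threshold, 21 changed sign, 17 lost a call and 7 gained one. No called member value changed sign. Part of this was fixed in advance: leaving out a sample of a group outside the comparison, or changing only the filter, cannot move a fold change. In spleens 999 genes were called, and 1849 with only the spleen groups fitted; leaving out a sample gave 641 (without OX40plus replicate 1) to 1191 genes and 1 to 3 members. For the interaction, 1365 genes were called, and leave-one-out fits gave 766 (again without spleen OX40plus replicate 1) to 1628 genes and 1 to 3 members. The count without spleen OX40minus replicate 2 was 649 in spleens and 825 for the interaction. These fits hold fewer samples.

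With the mouse number as a replicate block, Lat in tumors (adjusted p = 0.0638) and the Cd3e interaction (0.0728) lost their calls and no other member call changed; Cd4 between tissues in OX40minus Tregs went from -0.01 to 0.0573. Total count alone moved the median of all genes between tissues in OX40plus Tregs by -0.10 and turned Cd247 there to -0.0487. It also split the spleen calls into 680 higher and 398 lower, against 549 and 450. Relative log expression factors gave interactions of 0.0044 for Cd3d and 0.0187 for Zap70, and 680 higher and 711 lower interaction calls against 567 and 798. Leaving out 1 sample at a time, uncalled values crossed 0 for Cd3d (-0.009 to 0.31) and Cd247 (-0.042 to 0.12) in spleens, Cd247 between tissues in OX40plus (-0.0138 to 0.10), Cd4 between tissues in OX40minus (-0.0432 to 0.0291), and the interactions of Cd3d (-0.18 to 0.14), Cd28 (-0.0534 to 0.19), Zap70 (-0.11 to 0.0559) and Lat (-0.19 to 0.0357). The cause of these changes was not tested. Between the tumor gates, 10 to 12 proximal signaling, 6 to 9 calcium and NFAT and 2 to 5 PI3K genes were called lower; between the spleen gates, 3 to 7 proximal signaling and 0 to 3 PI3K genes.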

Other observations

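Between tissues, 11 of 19 inhibitors of receptor signaling were higher and 7 lower in tumor OX40plus than spleen OX40plus Tregs, and 10 were higher and 8 lower in OX40minus Tregs (medians 0.41 and 0.72, all tested genes -0.13 and -0.03). Of all genes, 30.3% were higher and 34.2% lower in OX40plus and 29.7% and 29.3% in OX40minus Tregs. Sla2, which encodes an adapter that lowers receptor levels, was higher in both gates (1.48, adjusted p = 5.81e-09, and 1.74, adjusted p = 1.28e-09). Lax1 was lower in both (-3.14, adjusted p = 7.56e-12, in OX40plus and -1.33, adjusted p = 1.86e-07, in OX40minus cells). Of 13 genes of the calcium and NFAT arm, 9 were lower and 2 higher in OX40plus and 5 lower and 3 higher in OX40minus Tregs of tumors, against the same shares of all genes. The inositol trisphosphate receptor gene Itpr3 was lower in both gates (-2.43 and -2.20), and the calcineurin subunit genes Ppp3cb (-1.32 and -1.22) and Ppp3cc (0.60 and 0.68) differed from spleen in opposite directions, all by limma with adjusted p of 2.16e-05 or less.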
